A study of Mus musculus with 16 samples.

Results

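Gene levels and isoform choice were compared between the cerebellum and the frontal cortex of Ctrl mice, the normal adult animals of the series. The members were the 4 Ctrl libraries of cerebellum and the 4 Ctrl libraries of frontal cortex, 8 of the 16 libraries, chosen by their tissue and genotype labels and joined by transcript identifier. The study itself asked which RNAs depend on Upf3b, a factor of the pathway that degrades RNAs with early stop codons (nonsense-mediated decay, NMD), and its other 8 libraries came from Upf3b-KO mice. The study describes the Ctrl animals as 4 adult littermates of the Upf3b-null mice, from which both regions were taken, and strain, exact age and sex are not given in the sources used here. No transgene or treatment is named for them. The labels number the libraries of a region from 1 to 4 without tying a number to an animal, so the libraries of 1 mouse could not be paired and the tests treat all 8 as separate.

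Both regions are made of neurons and glia, but of different kinds. The cerebellar cortex holds vast numbers of granule cells, small glutamatergic neurons whose parallel fibres excite the large GABAergic Purkinje cells, which are the only output of the cerebellar cortex. Bergmann glia ensheath the Purkinje cell synapses. The frontal cortex is a layered sheet of glutamatergic pyramidal neurons with a varied set of GABAergic interneurons, and it descends from the forebrain, whereas the cerebellum forms at the border of midbrain and hindbrain. Neurons also process the same gene differently: exons that encode parts of receptors, channels and cytoskeletal proteins are included in some neuron types and skipped in others.

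Total RNA was depleted of ribosomal RNA and sequenced as read pairs, and the deposited values are RSEM expected counts, model-based estimates of the reads that came from each transcript. The frontal cortex libraries held 32222278 to 34501210 counts and the cerebellum libraries 27660078 to 34565345, so that 3 counts, the floor used here for a gene with no counts, correspond to 0.0868 to 0.108 CPM (counts per 1e6 counts of the library). The 2 regions were deposited in separate tables, and region, table and any batch cannot be told apart. Spearman correlations across genes were 0.997 to 0.998 between libraries of a region and 0.883 to 0.884 between regions, and 94.0% of the variance lay on the first principal component. The libraries of a region lay close together. For genes whose mean reached 10 CPM, the median coefficient of variation between libraries was 3.49% in frontal cortex and 3.46% in cerebellum, where counting alone gives 2.67%. Arc, an activity-induced gene that usually varies between animals, lay between 59.3 and 63.8 CPM in frontal cortex and between 17.1 and 18.3 CPM in cerebellum. The p-values given here therefore measure only the spread between these libraries, which may be technical. All 8 libraries carried Y-linked transcripts, with Ddx3y between 93.7 and 134 CPM and Xist at no more than 0.141 CPM.

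Between the regions, 4402 of 17521 tested genes were called different, 25.1% of those tested. A gene was called at an adjusted p under 0.01 (quasi-likelihood test of edgeR, Benjamini-Hochberg adjustment) and a fold over 2. More genes were higher in frontal cortex (2794, 15.9% of those tested) than in cerebellum (1608, 9.18%). The same direction held for large differences, since 905 called genes were over 8-fold higher in frontal cortex and 348 in cerebellum. Without the fold limit, 12166 genes passed the adjusted p. The median log2 difference over all tested genes, cerebellum minus frontal cortex, was −0.01, and all log2 differences below have this direction and come from the same fit. In 4324 of the 4402 called genes the libraries of the 2 regions did not overlap, but this also held in 12517 of the 17521 genes tested. Protein-coding genes were called in 24.2% of cases (1270 higher in cerebellum and 2345 in frontal cortex, of 14927), and long non-coding RNA genes in 37.4% (218 and 353, of 1527). In bulk tissue, fewer cells of a type and less RNA per cell cannot be told apart.

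**Figure D1:**
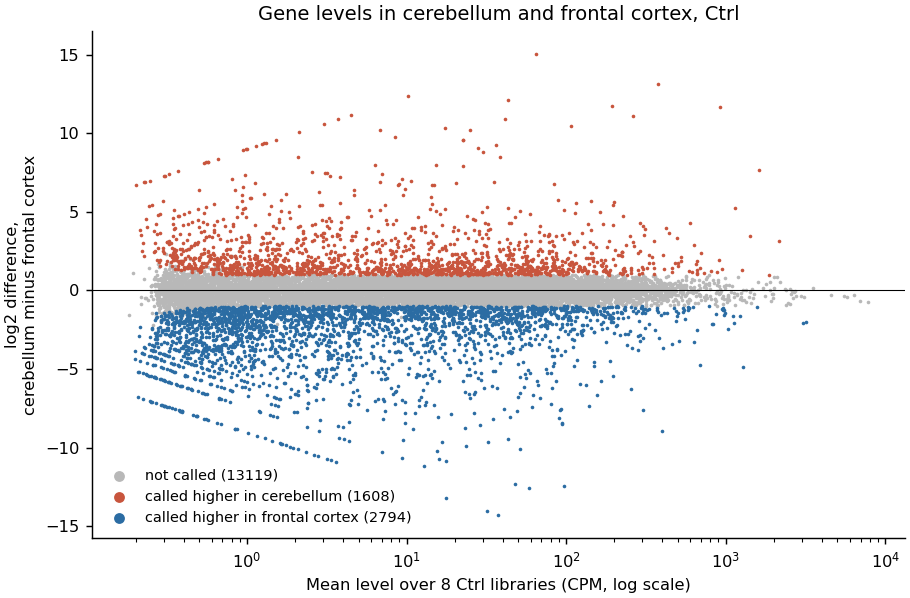
Log2 difference between regions (cerebellum minus frontal cortex, y axis) against the mean level of each tested gene over the 8 Ctrl libraries in CPM (x axis, log scale); each point is a gene, coloured where it was called higher in cerebellum (1608) or in frontal cortex (2794). Called genes lie beyond 1 log2 unit on either side of a cloud centred near 0. The diagonal lines of points at the left are genes with no or few counts in 1 region.

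Among well-expressed protein-coding genes (at least 50 CPM in the higher region), the 10 with the largest difference towards cerebellum were Cnpy1, Gabra6, Nrk, Pcp2, Cbln3, Ppp1r17, Crtam, Fat2, Lhx1 and Bcl2l15. Cnpy1 (ENSMUSG00000044681, chromosome 5, 28405683 to 28450804, minus strand), a regulator of fibroblast growth factor signalling at the border of midbrain and hindbrain, had 126, 134, 133 and 128 CPM in the cerebellum libraries and no count in any frontal cortex library. Against the floor it was at least 1442-fold higher in cerebellum. Gabra6 (ENSMUSG00000020428, chromosome 11, 42197264 to 42211910, minus strand), the GABA-A receptor subunit of granule cells, had 743, 756, 749.9 and 739.9 CPM in cerebellum and 0.0300, 0, 0.116 and 0.155 CPM in frontal cortex. Its log2 difference was 13.15 (SE 0.0649, adjusted p 2.17e-30). Cbln3, a secreted synaptic organiser made by granule cells, had 1836, 1835, 1840.1 and 1837 CPM in cerebellum against 0.600, 0.246, 0.551 and 0.776 CPM in frontal cortex (log2 difference 11.66, SE 0.0457, adjusted p 1.05e-31). Every cerebellum library of these genes lay above every frontal cortex library, which the choice of the 10 genes required. Per length, Pcp2 was the highest of the 10, at 1927 TPM (a share of all transcripts that is scaled by length, so that genes can be compared with each other). The Purkinje cell genes Pcp2 and Ppp1r17 reached 385 ± 10.7 and 527 ± 8.74 CPM (SD, n = 4) in cerebellum against 0.0975 ± 0.0715 and 0.234 ± 0.0551 CPM in frontal cortex. Nrk, a kinase gene of the X chromosome, had 86 ± 4.46 CPM in cerebellum, while 2 counts in all were found in frontal cortex. The ratio of its levels had a 95% counting interval of 1581 to 47182. Fat2, a protocadherin of parallel fibres, and Lhx1, a Purkinje cell transcription factor, had 213 ± 1.78 and 72.4 ± 1.71 CPM in cerebellum and under 0.25 CPM in each frontal cortex library. Lhx1 has an antisense neighbour, Lhx1os, whose reads may not be separated from it because the strand of counting is not given.

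Towards frontal cortex, 9 of the corresponding 10 genes are described here: Lhx2, Crym, Ddn, Kcnv1, Icam5, Slit1, Cpne7, Nrgn and Rgs14. Lhx2 (ENSMUSG00000000247, chromosome 2, 38229293 to 38259759, plus strand), a transcription factor that acts as a selector gene of the cortex, had 64.5, 64.4, 63.5 and 62.6 CPM in frontal cortex and no count in cerebellum, at least 666-fold lower there. Ddn, which encodes the postsynaptic protein dendrin, and Nrgn, which encodes the calmodulin-binding protein neurogranin, are dendritic RNAs of forebrain neurons. Ddn had 187, 197, 188 and 198 CPM in frontal cortex and 0, 0.0294, 0.0330 and 0.0723 CPM in cerebellum (log2 difference −12.46, SE 0.0920, adjusted p 1.22e-27). Nrgn, with 1252 TPM the highest of the 9 per length, had 771, 817, 788 and 812 CPM against 1.48, 1.62, 1.65 and 1.99 CPM (log2 difference −8.95, SE 0.0397, adjusted p 4.16e-31). In neither gene did the regions overlap, which the choice of genes again required. Crym, a thyroid hormone-binding protein of cortical neurons, and Kcnv1, a modifier subunit of potassium channels, stood at 117 ± 2.74 and 96 ± 2.79 CPM in frontal cortex and had 2 counts each in cerebellum. Their ratios had 95% counting intervals of 2048 to 61095 and 1681 to 50155. Icam5, the telencephalic adhesion molecule telencephalin, had 103 ± 2.82 CPM in frontal cortex against 0.107 ± 0.116 CPM in cerebellum. Slit1, an axon guidance ligand, and Rgs14, a regulator of G protein signalling, stood at 64.5 ± 2.72 and 57.6 ± 1.48 CPM. In these 9 genes the cerebellum libraries stayed below 2 CPM.

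**Figure D2:**
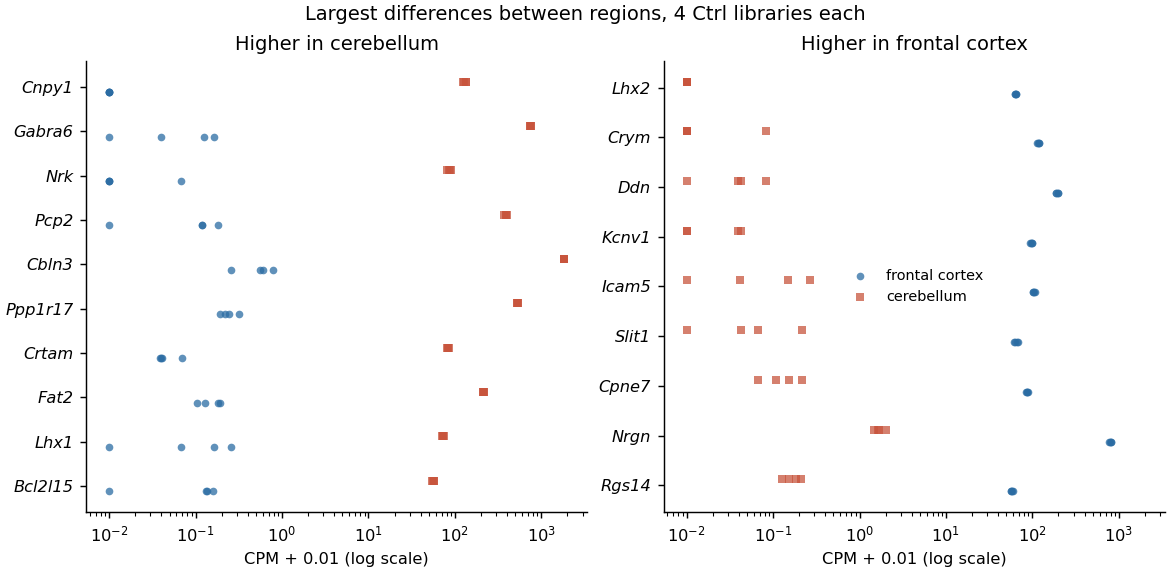
CPM of the genes with the largest difference in each direction (10 for cerebellum, 9 for frontal cortex), per Ctrl library (x axis, log scale of CPM + 0.01; 4 points for each region; a point at the left edge is a library with no count). In every gene all 4 libraries of the higher region lie far to the right of all 4 of the other region, and the points of the higher region nearly coincide. The choice of genes required that the regions not overlap.

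A total of 13 genes had at least 10 CPM in cerebellum and a mean under the floor in frontal cortex, and 23 genes showed the reverse. Cnpy1 was among the former, and Lhx2 was among the latter. Of 26 patterning factors of midbrain and hindbrain, 21 could be tested and all 21 were called higher in cerebellum (9.18% of all genes), with a median log2 difference of 5.74 (5.45 with genes at 0 counts set to their bound). Barhl2 and Lhx5 had 45.1 ± 0.243 and 16.8 ± 1.03 CPM in cerebellum. Pax3 had 7.41, 7.23, 7.86 and 7.19 CPM there and no count in frontal cortex, at least 82.2-fold higher in cerebellum. The remaining 5 (Atoh1, Gbx2, Pax5, Pax8 and Ptf1a), which act mainly in the embryo, were too low to test in both regions. Of 15 forebrain factors, 14 were tested, 12 were called higher in frontal cortex (15.9% of all genes) and 1 in cerebellum (median −6.38, or −6.0 with the bounds). Emx1 was found only in frontal cortex, with 5.73, 6.88, 5.71 and 7.14 CPM, at least 66.6-fold lower in cerebellum, and Emx2 had 18.7 ± 1.48 CPM in frontal cortex. The exception was Otx2, a factor of the anterior brain that is also made by choroid plexus, with 6.57, 6.85, 6.57 and 6.25 CPM in cerebellum against 0, 0.0606, 0 and 0.0931 CPM in frontal cortex (log2 difference 7.25, SE 0.304). Nr2f2 was not called, at 25.4 ± 1.57 CPM in frontal cortex and 15.9 ± 0.612 CPM in cerebellum. None of 22 Hox genes, which mark levels behind the cerebellum, was high enough to test in these libraries, and their summed level did not exceed 0.723 CPM in any library.

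The tissue labels were checked against markers of the expected cell types, beside the 9.18% of all genes called higher in cerebellum. All 13 granule cell markers were called higher in cerebellum, with a median log2 difference of 5.45, and their summed level rose from 313 to 324 CPM in frontal cortex to 5814 to 5855 CPM in cerebellum. Of 14 Purkinje cell markers 13 were called higher there (median 6.0, or 5.02 with bounds). The only one that was not was Foxp2, which deep cortical neurons also use, at 19.4 ± 1.19 CPM in cerebellum and 11.6 ± 0.879 CPM in frontal cortex. Among 8 markers of cerebellar interneurons and unipolar brush cells, 6 were called higher in cerebellum. They included Slc6a5, the glycine transporter of glycinergic neurons (35 ± 1.08 CPM against 3 counts in all in frontal cortex, a ratio with a 95% counting interval of 531 to 7533), and Eomes, a marker of unipolar brush cells (7.53 ± 0.229 against 0.152 ± 0.0779 CPM). The other 2 members of this list were not called, the lower with a log2 difference of −0.80. Its summed level was 111 to 115 CPM in frontal cortex and 148 to 155 CPM in cerebellum. Bergmann glia markers were called in 3 of 6 cases, led by the growth factor gene Gdf10 at 262 ± 4.75 CPM in cerebellum and 13.5 ± 0.745 CPM in frontal cortex. Slc1a3, the main glutamate transporter of Bergmann glia, stood at 2755 ± 15.7 against 1455 ± 12.9 CPM, a log2 difference of 0.87 that passed the adjusted p but not the fold.

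In frontal cortex, 8 of 10 markers of cortical glutamatergic neurons were called higher and none lower (median −5.46), where 15.9% of all genes were called higher. Tbr1, a transcription factor of cortical projection neurons, had 49.6 ± 0.535 CPM in frontal cortex and 0.455 ± 0.126 CPM in cerebellum. Sv2b and Bhlhe22 were not called, and Bhlhe22 was higher in cerebellum (93.5 ± 3.76 against 63.9 ± 1.57 CPM). Markers of cortical layers were called in frontal cortex in 4 of 7 (upper) and 6 of 9 (deep) cases. Fezf2, which specifies deep-layer neurons that project out of the cortex, had 33.8, 34, 32 and 33.1 CPM in frontal cortex and 0.0868, 0.0588, 0 and 0 CPM in cerebellum, and Lamp5 of the upper layers 98 ± 1.12 against 0.506 ± 0.209 CPM. Calb1, listed for the upper layers and for Purkinje cells, was called in the other direction and is described with the calcium-binding proteins. Nxph4, a neurexophilin gene of the deep-layer list, was also called higher in cerebellum (8.59 ± 0.446 against 1.81 ± 0.562 CPM). The cortical interneuron list had the largest median of all lists, −7.6 (−6.47 with bounds), and 13 of its 15 members were called higher in frontal cortex. Dlx1, a transcription factor of forebrain interneurons, stood at 30.9 ± 2.21 CPM there and had 3 counts in all in cerebellum, a ratio with a 95% counting interval of 446 to 6330.4. Adarb2, a further marker of this list, did not differ beyond its spread, with 20.9 ± 1.35 CPM in frontal cortex and 21 ± 0.827 CPM in cerebellum (adjusted p 0.499).

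Glial lists divided, where 9.18% of all genes were called higher in cerebellum and 15.9% in frontal cortex. All 10 microglia markers were called higher in frontal cortex, with a median log2 difference of −1.61 and a summed level of 633 to 652 CPM against 222 to 230.3 CPM in cerebellum. P2ry12, a purine receptor of resting microglia, had 105, 100.5, 102 and 100.1 CPM in frontal cortex and 25.1, 25, 27.3 and 27.7 CPM in cerebellum (log2 difference −2.01, SE 0.0376, adjusted p 6.2e-21). Of 5 oligodendrocyte precursor markers, 4 were called higher in frontal cortex, such as the growth factor receptor gene Pdgfra at 85.8 ± 1.18 against 22.5 ± 0.978 CPM. Of 10 mature oligodendrocyte markers 1 was called higher in each region, a share near the 25.1% of all genes, and Mbp, which encodes a main myelin protein, stood at 3287 ± 35.4 CPM in frontal cortex and 2659 ± 58.5 CPM in cerebellum. Astrocyte markers split both ways, 4 higher in cerebellum and 3 in frontal cortex of 11. Aqp4, the water channel of astrocyte endfeet, rose to 650.4 ± 9.73 CPM in cerebellum from 275 ± 2.75 in frontal cortex, and S100b to 547 ± 9.38 from 111 ± 1.95 CPM. Slc1a2, the main glutamate transporter of forebrain astrocytes, and Gfap, an intermediate filament, went the other way, from 1347 ± 14.8 and 401 ± 5.45 CPM in frontal cortex to 323 ± 3.67 and 167 ± 2.11 CPM in cerebellum. None of the 10 markers of endothelial cells and pericytes was called, against 25.1% of all genes.

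Markers of tissue that a dissection can carry along were examined as well, and their part in the other results was not tested. The shares of all genes called higher were 9.18% in cerebellum and 15.9% in frontal cortex. All 5 red cell genes were called higher in cerebellum, with summed levels of 489 to 504 CPM in frontal cortex and 1255 to 1325 CPM in cerebellum. Choroid plexus markers were called in both directions (2 higher in cerebellum, 5 in frontal cortex, of 8) and were low, with sums of 22.7 to 23.7 CPM and 31.6 to 36 CPM. The defining marker Ttr, which encodes transthyretin, stood at 7.94 ± 0.378 CPM in frontal cortex and 2.05 ± 0.186 CPM in cerebellum. Striatal markers were called higher in frontal cortex in 6 of 9 cases and in cerebellum in 2. Drd1 and Drd2, the dopamine receptors of striatal neurons, had 13.3 ± 0.916 and 1.38 ± 0.589 CPM in frontal cortex against 0.447 ± 0.0633 and 0.0644 ± 0.0394 CPM in cerebellum. Ppp1r1b and Penk were the 2 that were higher in cerebellum. Meningeal markers were called in 1 of 6 cases (Dcn, higher in frontal cortex), and of 5 tested markers of other brain nuclei 1 was called higher in cerebellum and 2 in frontal cortex.

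**Figure D3:**
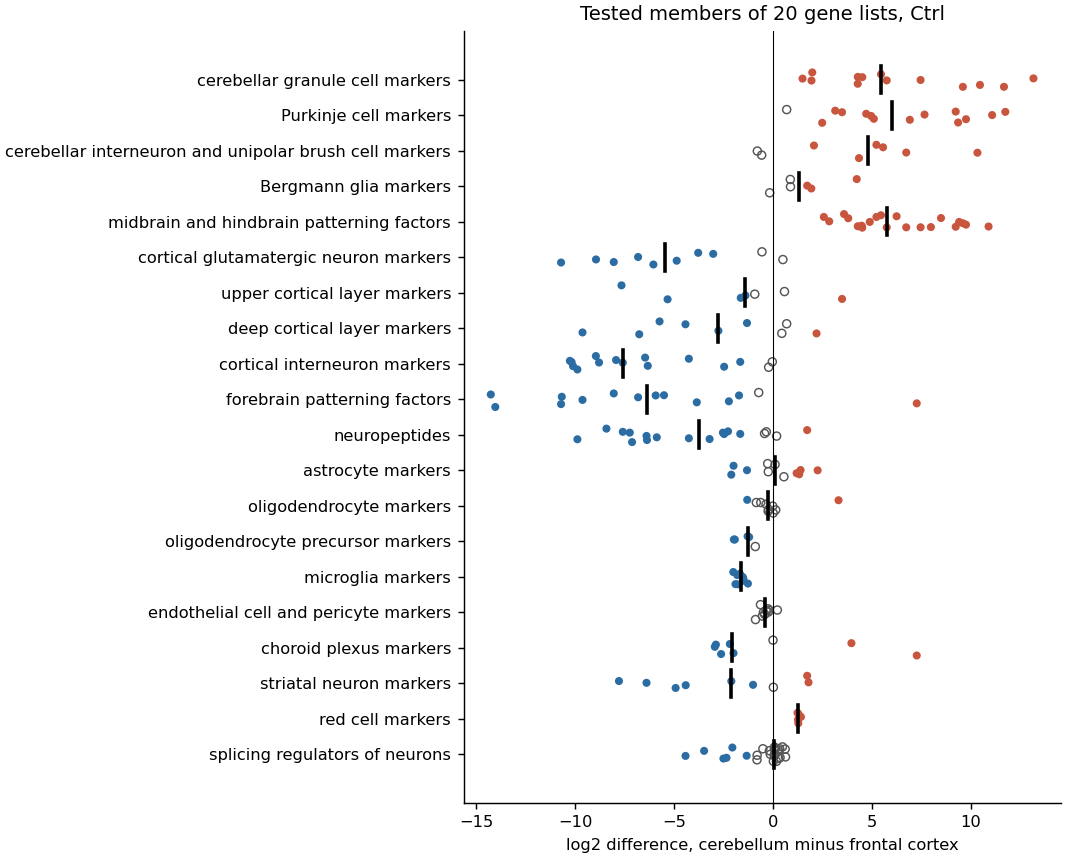
Log2 difference between regions (cerebellum minus frontal cortex, x axis) for every tested member of 20 gene lists (y axis); filled points were called, open points were not, and the vertical bar in each row is the list's median. Granule cell, Purkinje cell and hindbrain lists lie to the right, cortical interneuron, glutamatergic neuron and forebrain lists to the left, and the medians of the glial lists lie closer to 0.

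Inhibitory receptor subunits differed in level and in proportion. GABA-A receptors are chloride channels assembled from alpha, beta and gamma or delta subunits, and the alpha subunit sets their kinetics and drug response. Of 15 tested subunit genes, 4 were called higher in cerebellum and 6 in frontal cortex, where 9.18% and 15.9% of all genes were called. On the TPM scale, the alpha subunits summed to 672 ± 4.01 TPM in frontal cortex and 1725 ± 25.3 TPM in cerebellum (SD, n = 4). Gabra6 took 45% ± 0.253 of that sum in cerebellum and 0.0109% ± 0.0105 in frontal cortex. Gabra5, an extrasynaptic subunit, showed the opposite, with 21.7% ± 0.192 in frontal cortex and 0.0318% ± 0.00852 in cerebellum, and its level went from 179.5, 177, 179 and 181 CPM to 0.550, 0.764, 0.495 and 0.904 CPM. The regions did not overlap in either gene. The extrasynaptic delta subunit Gabrd, the usual partner of Gabra6 in granule cells, rose to 134 ± 4.38 CPM in cerebellum from 33.7 ± 0.387 CPM, and its share of gamma and delta subunits to 49.2% ± 1.46 from 20.4% ± 0.644. Among beta subunits, Gabrb2 held 47% ± 0.890 in cerebellum and 16.2% ± 0.630 in frontal cortex. Of the glycine receptor and transporter genes, the alpha subunits Glra2 and Glra3 were called higher in frontal cortex (14 ± 1.2 and 14.4 ± 1.55 CPM against 2.75 ± 0.483 and 0.373 ± 0.144), and the transporters Slc6a5 and Slc6a9 and the subunit Glra1 in cerebellum, the latter with under 1 CPM in every library.

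AMPA receptors, which carry fast excitation, also differed in make-up. Gria2, whose subunit renders the channel impermeable to calcium, made up 51.7% ± 0.155 of the 4 AMPA receptor genes in frontal cortex and 16.6% ± 0.188 in cerebellum on the TPM scale. Gria4 went from 7.9% ± 0.232 to 43.2% ± 0.324, and its level from 90.3, 83.6, 87.2 and 88 CPM in frontal cortex to 901, 915, 911 and 911 CPM in cerebellum (log2 difference 3.33, SE 0.0206, adjusted p 7.74e-29). Gria1, which Bergmann glia as well as neurons express, held 29.7% ± 0.270 and 34% ± 0.351. NMDA receptors pair Grin1 with GluN2 subunits that set their kinetics. Grin2b held 45.4% ± 4.01 of GluN2 TPM in frontal cortex and 2.55% ± 0.886 in cerebellum, Grin2a 29.3% ± 3.07 and 8.77% ± 0.440, and Grin2c, the granule cell subunit, 23.5% ± 1.27 and 87.2% ± 1.25. The levels of Grin2b were 223, 227, 219.6 and 217 CPM in frontal cortex and 11.1, 11.2, 10.7 and 9.8 CPM in cerebellum. The obligatory subunit Grin1 was level, with 255 ± 6.12 CPM in frontal cortex and 254 ± 6.97 CPM in cerebellum and overlapping libraries. Over the 18 ionotropic genes, 5 were called higher in each region, against 9.18% of all genes in cerebellum and 15.9% in frontal cortex.

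Metabotropic receptors also differed in their members. Grm5 made up 39.8% ± 0.636 of their TPM in frontal cortex and 1.24% ± 0.141 in cerebellum, while the presynaptic Grm4 made up 1.75% ± 0.0324 and 23.2% ± 0.307. In CPM, Grm5 had 289.8, 285, 284 and 286 in frontal cortex and 10.6, 9.997, 11.1 and 11 in cerebellum. The libraries of the regions did not overlap. The vesicular glutamate transporter Slc17a7 held over 98% of its family in both regions, and the family summed to 1025 ± 18.8 TPM in frontal cortex and 387 ± 7.56 TPM in cerebellum. Among plasma membrane glutamate transporters, Slc1a6 of Purkinje cells went from 5.3 ± 1.05 to 187 ± 3.28 CPM and from 0.475% ± 0.0930 to 10.9% ± 0.238 of the family's TPM. The synaptic organisers of the cerebellin family divided cleanly, with Cbln1 and Cbln3 called higher in cerebellum (385 ± 3.77 CPM for Cbln1 against 8.49 ± 1.09) and Cbln2 and Cbln4 in frontal cortex (23.5 ± 1.3 and 27.5 ± 0.238 CPM against 0.189 ± 0.0192 and 0.730 ± 0.120).

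**Figure D4:**
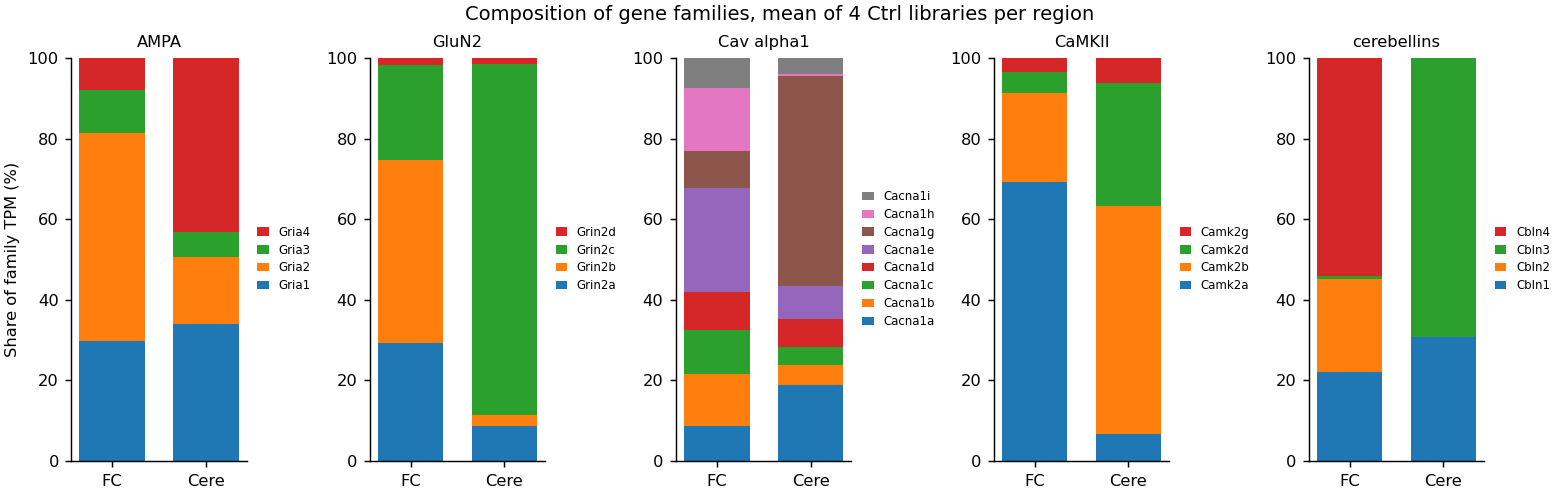
Share of each member in the summed TPM of 5 gene families (y axis, percent; means of 4 Ctrl libraries), for frontal cortex (FC) and cerebellum (Cere). Gria4, Grin2c, Cacna1g and Camk2b hold a large part of their families in cerebellum, and Gria2, Grin2b and Camk2a in frontal cortex.

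Of 27 potassium and HCN channel genes, 4 were called higher in cerebellum (9.18% of all genes) and 11 in frontal cortex (15.9% of all genes). The fast Kv3 channels, which let neurons fire at high rates, were shared out differently between their genes. Kcnc2, a subunit of fast-spiking cortical interneurons, held 38% ± 1.46 of the family's TPM in frontal cortex and 0.347% ± 0.0453 in cerebellum. The level of Kcnc2 was 143, 149, 148 and 147 CPM in frontal cortex and 4.43, 3.53, 3.83 and 4.3 CPM in cerebellum. Kcnh3 and Kcnq5 were also frontal, at 107 ± 3.23 and 67.1 ± 1.11 CPM against 1.59 ± 0.159 and 2.03 ± 0.286. Of 9 sodium channel genes, 2 were called higher in cerebellum and 3 in frontal cortex (9.18% and 15.9% of all genes). Scn4b, whose subunit favours the resurgent current of Purkinje cells, rose to 121 ± 1.87 CPM in cerebellum from 27.9 ± 1.89, and the subunit Scn3b fell to 2.1 ± 0.254 from 132 ± 1.7 CPM in frontal cortex. Of 16 calcium channel genes, 4 and 5 were called in these directions, beside the same shares of all genes. Cacna1g, a T-type channel, made up 52.2% ± 1.25 of the pore-forming TPM in cerebellum and 9.16% ± 1.12 in frontal cortex, and Cacna1a, the P/Q-type channel, 18.9% ± 1.49 and 8.72% ± 1.14.

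Of 19 genes of calcium binding and storage, 9 were called higher in cerebellum and 6 in frontal cortex, against 25.1% of all genes in either direction. The former count was 8 with DESeq2, the replicate block or length offsets. Calb1, the calcium buffer calbindin, which is abundant in Purkinje cells, had 2542, 2619.8, 2655 and 2588 CPM in cerebellum and 229, 225, 222 and 221 CPM in frontal cortex (log2 difference 3.48, SE 0.0173, adjusted p 2.18e-30). Pvalb and Calb2, the buffers parvalbumin and calretinin, rose to 801 ± 14 and 568 ± 12.5 CPM from 49.4 ± 1.29 and 47.8 ± 1.11. The pump gene Atp2a3 went from 7.63 ± 0.268 to 389.9 ± 8.71 CPM. The summed TPM of InsP3 receptors, the release channels of the calcium store, was 141 ± 3.82 in frontal cortex and 1356 ± 8.39 in cerebellum, and Itpr1 held over 94% of it in both. Hpca, the calcium sensor hippocalcin, went the other way, from 745 ± 20.8 to 60.8 ± 2.49 CPM. Calmodulin-dependent kinase II, which is central to synaptic plasticity, was dominated by Camk2a in frontal cortex (69.3% ± 0.281 of the family's TPM) and by Camk2b in cerebellum (56.7% ± 0.751). The level of Camk2a was 2458, 2495, 2466 and 2461 CPM in frontal cortex and 86.9, 89.4, 87.8 and 85.5 CPM in cerebellum, whereas Camk2b was nearly level (663 ± 8.6 and 631 ± 24.4 CPM). Of 18 neuropeptide genes, 14 were called higher in frontal cortex (15.9% of all genes) and 1 in cerebellum (9.18%), with a median log2 difference of −3.74. Sst and Vip, the peptides somatostatin and vasoactive intestinal peptide of cortical interneurons, had 182 ± 3.68 and 46.9 ± 2.26 CPM in frontal cortex and 0.971 ± 0.0651 and 0.0465 ± 0.0539 CPM in cerebellum, and the exception was Penk, with 128 ± 3.54 CPM in cerebellum against 37.3 ± 1.8.

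Isoform choice was examined next, as the share of each transcript in the length-scaled output of its gene. Of 24331 transcripts tested in 8495 genes, 442 (1.82%) were called, 209 with a larger share in cerebellum and 233 in frontal cortex. A call needed an adjusted p under 0.01 (edgeR's diffSpliceDGE with Benjamini-Hochberg adjustment) and a difference of at least 10 percentage points. They fell in 327 genes (3.85% of those tested), of which 199 were not called at the gene level, and in 131 of the 327 another transcript led in each region. The shares did not overlap between regions in 437 of the 442, and this held in 4698 (19.3%) of the 24331 tested. With limma's diffSplice in place of edgeR and the same limits, 1279 shares were called. At the level of single transcript counts, 6195 of 41367 transcripts (15%) were called, 2508 higher in cerebellum and 3687 in frontal cortex, and 3992 were called with the replicate number as a block. Among 64 tested genes chosen for known alternative isoforms, 21 had a called transcript (32.8%). A total of 72 genes with at least 20 CPM in both regions held coding transcripts called in opposite directions without overlap of shares. In 20 of them the gene total differed by under 0.25 on the log2 scale. Because RSEM divides reads among similar transcripts by a model, a share listed at exactly 0 is an estimate and not proof of absence, and forms that differ only near their ends or that are annotated incompletely are the least certain.

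The exons that set these forms apart are shown for 4 genes of synapses and dendrites in which 2 transcripts called in opposite directions differ by whole internal coding exons. They were read from the GRCm39 genome at the positions that GENCODE annotates, 5′ to 3′ on the gene's strand. In Gria1 (plus strand), exon 14 of 16 is either of 2 mutually exclusive exons of 115 bases, called flip (chr11:57201434-57201548) and flop (chr11:57200595-57200709), which shape the ligand-binding domain of the receptor. They differ at 36 of 115 aligned positions (68.7% identity), shown in capitals. In the other sequences the exon is in capitals and the 10 intronic bases on either side are in lower case. In Grin1 (minus strand) the exons shown are the N-terminal cassette of 63 bases (exon 4 of 20, chr2:25201355-25201417), which alters the extracellular domain, and the C-terminal cassette of 111 bases (exon 19 of 20, chr2:25184450-25184560), which alters the cytoplasmic tail. In Dbn1 (minus strand) it is the exon of 138 bases (exon 11 of 15, chr13:55624449-55624586) that turns drebrin E into the neuronal form drebrin A. In Map2 (plus strand) it is an exon of 93 bases (exon 10 of 13, chr1:66470686-66470778) that adds a microtubule-binding repeat. The cassettes of 63, 111, 138 and 93 bases keep the reading frame.
Gria1 flip: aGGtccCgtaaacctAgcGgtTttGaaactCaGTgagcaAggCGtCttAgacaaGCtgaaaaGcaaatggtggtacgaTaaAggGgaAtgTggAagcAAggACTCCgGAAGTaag
Gria1 flop: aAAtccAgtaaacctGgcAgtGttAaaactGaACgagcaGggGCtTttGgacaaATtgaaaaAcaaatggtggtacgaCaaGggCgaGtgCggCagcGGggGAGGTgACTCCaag
Grin1 N-terminal cassette: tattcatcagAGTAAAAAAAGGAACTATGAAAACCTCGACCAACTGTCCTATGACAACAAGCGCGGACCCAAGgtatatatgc
Grin1 C-terminal cassette: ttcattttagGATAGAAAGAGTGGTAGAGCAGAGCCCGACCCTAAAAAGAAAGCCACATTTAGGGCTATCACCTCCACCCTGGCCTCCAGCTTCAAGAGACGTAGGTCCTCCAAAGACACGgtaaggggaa
Dbn1 drebrin A exon: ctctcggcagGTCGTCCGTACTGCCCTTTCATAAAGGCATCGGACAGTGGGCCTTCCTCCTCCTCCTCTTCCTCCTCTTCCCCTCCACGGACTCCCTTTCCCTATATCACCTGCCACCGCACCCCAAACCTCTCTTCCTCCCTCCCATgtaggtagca
Map2 repeat exon: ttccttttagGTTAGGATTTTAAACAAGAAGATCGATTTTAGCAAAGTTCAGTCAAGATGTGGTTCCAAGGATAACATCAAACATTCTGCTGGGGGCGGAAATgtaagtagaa

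Gria1 passed from a mixture in frontal cortex to nearly pure flip in cerebellum. The flip transcript (ENSMUST00000036315) made up 41.2%, 42.3%, 44.5% and 44% of the gene in the frontal cortex libraries and 94%, 94.3%, 93.9% and 93.5% in the cerebellum libraries (adjusted p 1.21e-11). The flop transcript (ENSMUST00000094179) made up 56.7% ± 1.64 in frontal cortex and 5.31% ± 0.253 in cerebellum (SD, n = 4, adjusted p 1.41e-16). The shares of the regions lay far apart, while the gene total was not called (log2 difference 0.71). In Grin1, whose total did not differ beyond the fold (log2 difference −0.06), the transcript with the N-terminal but not the C-terminal cassette (ENSMUST00000114317) made up 26.6%, 23%, 20.2% and 21.6% in frontal cortex and 56.3%, 59.7%, 60.6% and 60.2% in cerebellum (adjusted p 2.74e-09). The transcript with the C-terminal but not the N-terminal cassette (ENSMUST00000114314) went from 29.7% ± 4.16 to 6.61% ± 2.17. Between these transcripts, that with the extracellular insert had the larger share in every cerebellum library, and that with the tail insert in 3 of the 4 frontal cortex libraries. A further called Grin1 transcript, ENSMUST00000028335, went from 22.3% ± 1.56 in frontal cortex to 3.9% ± 0.887 in cerebellum. Which cassettes it carries was not examined, so the total share of either insert is not given.

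Dbn1 encodes drebrin, an actin-binding protein of dendritic spines. Its transcript with the drebrin A exon (ENSMUST00000021950) made up 76%, 72.5%, 74.9% and 73.5% in frontal cortex and 22%, 22.5%, 21.3% and 16% in cerebellum (adjusted p 4.31e-15). The transcript that lacks only this exon (ENSMUST00000109923) was listed at 0 in every frontal cortex library and at 48.6%, 51.6%, 57.7% and 53% in cerebellum. In Map2, a dendritic microtubule protein, the short form with the repeat exon (ENSMUST00000114018) went from 7.23% ± 0.212 to 19.99% ± 0.544 (adjusted p 9.29e-21), and the same form without it (ENSMUST00000024639) from 43.9% ± 0.888 to 32.1% ± 0.656, a call that was lost without cerebellum replicate 3 (−11.5 points). Both genes were called higher in frontal cortex in total. Gria4 also differed in form. Its full-length transcript with 2709 coding bases rose from 13.9% ± 4.09 in frontal cortex to 52.7% ± 0.581 in cerebellum, and a short one with 1302 coding bases, which ends before the exons of the channel domain, went from 67.8% ± 0.911 to 38.9% ± 0.622.

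Several of the largest differences in share lay between transcripts with different first coding exons. Kcnip1, a calcium-binding partner of potassium channels, was read from a transcript with its own first coding exon in cerebellum (ENSMUST00000238903, 87.1%, 85.5%, 85.7% and 86.7%, listed at 0 in every frontal cortex library, adjusted p 9.11e-25). In frontal cortex the leading form was another (ENSMUST00000065970, 64% ± 5.4 against 3.51% ± 0.652 in cerebellum). Ptprr, a receptor-type tyrosine phosphatase gene, likewise moved from a form with 1971 coding bases (ENSMUST00000063470, 74.2% ± 6.57 in frontal cortex, 17.5% ± 1.16 in cerebellum) to one with 1650 (ENSMUST00000105271, listed at 0 in frontal cortex, 81.2% ± 2.67 in cerebellum). Both genes were called higher in cerebellum in total. Myo10, an unconventional myosin of filopodia, was not called in total (log2 difference 0.21). Its long transcript with 6189 coding bases rose from 8.08%, 7.87%, 10.6% and 8.99% in frontal cortex to 75.7%, 66.2%, 81.6% and 71.3% in cerebellum, and the shorter one with 3951 coding bases, whose coding region starts further downstream, went from 53.2% ± 1.13 to 0.964% ± 1.93. Phactr3, a regulator of phosphatase and actin, had a transcript with its own first coding exon at 3.71% ± 3.09 in frontal cortex and 64% ± 1.93 in cerebellum. Trio, an exchange factor for small GTPases, had a transcript with 5550 coding bases at 1.7% ± 0.502 in frontal cortex and 55.4% ± 0.632 in cerebellum. Its called frontal form is annotated incompletely and differs from it at both ends, so the pair is not set apart by the first exon alone.

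Other genes held transcripts called in opposite directions with little change in total. Ncam1, an adhesion molecule with membrane-anchored forms of several sizes, used the form with 2178 coding bases at 33.6% ± 1.73 and 54.4% ± 1.53 and that with 2547 at 30.9% ± 2.01 and 12.9% ± 0.596. Dnm1, the dynamin of synaptic vesicle retrieval, went from 56.6% ± 1.88 to 29.9% ± 1.5 for the form that led in both regions, and another rose from 7.74% to 23.3%. In Adgrb3, an adhesion receptor of synapses, the form with 4569 coding bases rose from 32.5% ± 2.61 to 69.6% ± 4.94, and in Magi2, a postsynaptic scaffold, that with 4203 from 12.2% ± 4.73 to 38.4% ± 5.56. Myl6, a myosin light chain, exchanged its 2 forms of equal coding length, from 25.8% ± 2.33 to 62.3% ± 1.98 for the transcript with the extra exon. Fgf13 and Nrxn3 changed form as well as level. The long Fgf13 form with 738 coding bases went from 51.9% ± 3.53 in frontal cortex to 2.39% ± 1.05 in cerebellum, and Nrxn3, a presynaptic neurexin, moved towards its short form with 1704 coding bases, from 4.8% ± 1.56 to 31.5% ± 1.36.

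**Figure D5:**
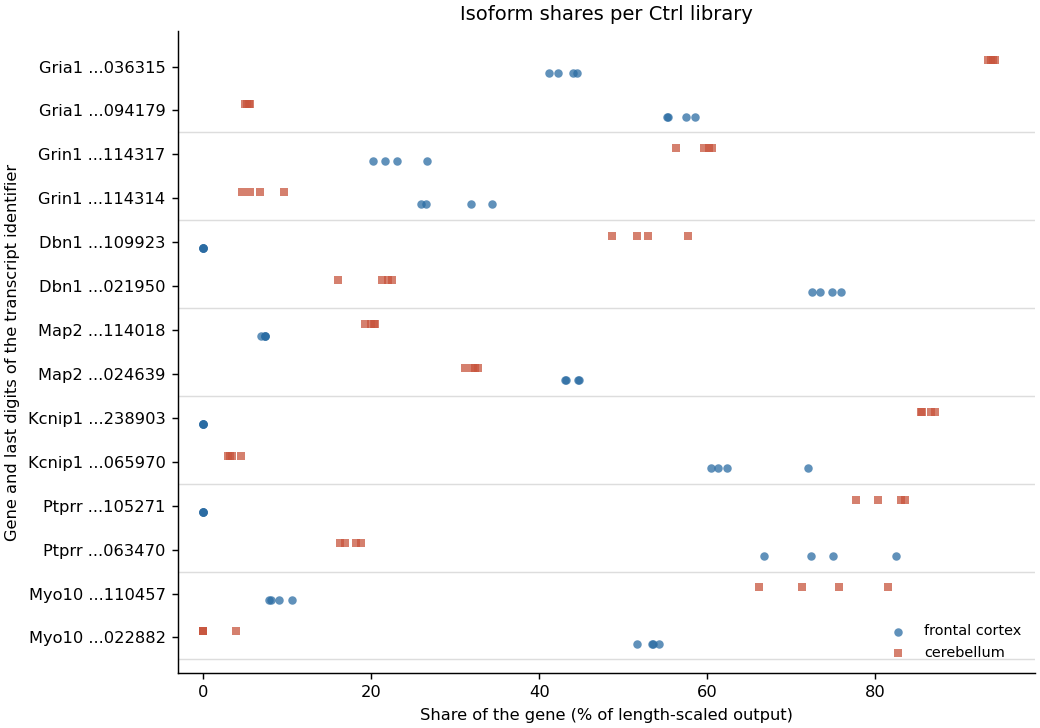
Isoform share (x axis, percent of the gene's length-scaled output) of 14 transcripts in 7 genes, per Ctrl library; circles are frontal cortex and squares are cerebellum, 4 each. In every transcript shown the 4 circles are separate from the 4 squares, and within a gene the shares move in opposite directions. Both features were conditions of the choice of these transcripts.

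Of 27 tested regulators of neuronal splicing 6 were called, against 25.1% of all genes, and all 6 were higher in frontal cortex: Khdrbs3, Celf5, Celf6, Celf3, Elavl2 and Celf4. Khdrbs3, an RNA-binding protein of the STAR family, had 56, 53.7, 52.4 and 56.7 CPM in frontal cortex and 2.17, 2.18, 3.33 and 3.0 CPM in cerebellum (log2 difference −4.43, SE 0.0827, adjusted p 6.12e-21). Celf5 stood at 66.1 ± 1.74 against 6.11 ± 0.295 CPM. Celf4, the highest of the list per length, went from 695 ± 7.5 to 285 ± 3.23 CPM. Mbnl2 (319.5 ± 3.63 and 347 ± 3.35 CPM) and Rbfox3 (216 ± 4.83 and 285 ± 7.43 CPM) were not called, and the list median was 0.06. Of 18 NMD and exon junction factors 1 was called, against 25.1% of all genes. Smg1, the kinase that phosphorylates the NMD helicase, rose from 23.1, 23.8, 22.3 and 20.8 CPM in frontal cortex to 51.8, 51.1, 52.6 and 56.9 CPM in cerebellum. Upf1, the helicase itself, stood at 44.5 ± 2.67 and 76.1 ± 1.26 CPM (log2 difference 0.72) and Upf3b at 14.8 ± 0.637 and 22.7 ± 1.23 CPM (log2 difference 0.56), below the fold, and the list median was 0.26.

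Classes of transcript differed between the regions by small parts of the counts. Transcripts annotated as NMD targets held 2.72% ± 0.0170 of the counts in frontal cortex and 2.62% ± 0.00950 in cerebellum. Those with a stop codon at least 50 nt before the last exon junction, the feature that marks candidate NMD targets, held 2.9% ± 0.0174 and 2.76% ± 0.0107. Both classes were lower in every cerebellum library than in any frontal cortex library, as were mitochondrial transcripts (4.94% ± 0.0435 and 3.81% ± 0.0495). Retained-intron transcripts were higher in cerebellum, at 1.66% ± 0.00130 and 1.83% ± 0.0168. An exact two-sided permutation test gave p = 0.0286 for each of these classes, the smallest value that 4 against 4 libraries allow, and 0.0333 adjusted over the 7 measures tested. The size of these differences depended on the scale, and that of mitochondrial transcripts went from −1.13 percentage points of counts to −2.20 points of TPM. The mean 3′ UTR length of coding transcripts, 2133 nt ± 5.48 and 2145 nt ± 5.75, gave an exact p of 0.0571 in the same test. Isoform shares were called for 373 of 17711 coding transcripts (2.11%), 16 of 1660 NMD-annotated transcripts (0.964%) and 28 of 2652 retained-intron transcripts (1.06%), and these rates were not tested against each other.

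The Upf3b-KO libraries, which the calls above did not use, came from the same regions. Of the 2794 genes called higher in frontal cortex, 2760 were tested in 7 Upf3b-KO libraries (without 1 shallow library of cerebellum), 2529 had the same direction (91.6%) and 1712 were called the same way (62.0%), while 50 were called the other way. Of the 1608 genes called higher in cerebellum, 1525 were tested, 1455 had the same direction (95.4%), 817 were called the same way (53.6%) and 7 the other way. The 19 genes with the largest differences named above were called in the same direction there. Of the 442 called isoform shares, 420 had the same direction (95.0%), 311 also kept at least 10 percentage points and 3 differed by at least 10 points the other way. The median size was 15.1 percentage points against 20.4 in Ctrl. How often all tested genes and transcripts had these outcomes in Upf3b-KO was not examined. In Dbn1 the drebrin A transcript had 72.3% in frontal cortex and 55.4% in cerebellum of the Upf3b-KO libraries, and the transcript without its exon 19% in cerebellum, so that the leading form of the cerebellum was not that of Ctrl. The long Myo10 transcript held 34.8% there and the shorter one 29.4%, and the Trio transcript named above held 18.8%. The long Fgf13 form held 24.4% in the cerebellum of Upf3b-KO. In Grin1 the named transcript with the extracellular insert had a larger share than that with the tail insert in the frontal cortex of Upf3b-KO (34.8% against 24.1%). The further transcript ENSMUST00000028335 held 25.3% there. These differences from Ctrl were not tested. In these libraries Ttr, the choroid plexus marker, stood at 1829 to 1887 CPM in frontal cortex and 1198 to 1215 CPM in cerebellum, far above the Ctrl levels given above. Its part in the differences between Ctrl and Upf3b-KO was not tested.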

How the data were processed

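RNA depleted of ribosomal RNA was sequenced as read pairs from 4 Ctrl libraries of frontal cortex and 4 of cerebellum. Per the study's methods, the authors aligned reads with STAR 2.5.2b to GRCm39 and deposited RSEM expected counts per Ensembl transcript, unscaled, in 1 table per region. The RSEM version and the strand of counting are not given in the sources used here, so overlapping and antisense genes, and near-identical copies, are uncertain. Of 142435 transcripts, 141102 were matched to GENCODE vM39 (99.38% to 99.42% of counts), which gave symbols, lengths and coding regions. Library totals of 27660078 to 34565345 set the precision, and all intervals and floors cover counting error only.

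Expected counts were rounded, summed per gene and tested with edgeR 4.0.16 (quasi-likelihood test, TMM, minimum count 10, 2-sided, Benjamini-Hochberg adjustment, R 4.3.3). The fit used the 8 Ctrl libraries. Isoform shares (transcripts with at least 5% of the gene in a region) were tested with diffSpliceDGE on counts, and their size came from length-scaled values. Each test recovered all 200 changed features in simulated counts. The planted changes were larger than the limits of a call, and the division of reads among similar transcripts was not simulated. Recovery near those limits was therefore not examined. The alternatives were DESeq2 1.42.0, limma 3.58.1, other filters, thresholds and scalings, a replicate block, and leaving out each library. The members and gene lists were chosen with earlier results of these data known. Named genes were the 10 largest in each direction among those without overlap between regions. In each list they were the called members with the largest fold (up to 4 a direction) and the uncalled ones of highest mean. Genes with the largest opposite changes of isoform share, also without overlap between regions, or from the isoform list were named too. Celf4, Upf1, Upf3b, Arc and Dcn, the decay transcripts and the long non-coding RNAs were chosen after their values were seen. Some genes that the rule would name are not reported here. The same-numbered libraries of the regions deviated from their means with correlations of −0.0704, 0.0837, 0.00478 and −0.0554, and were not treated as pairs, although both regions came from the same 4 mice.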

Additional observations from a re-analysis of the deposited data

Results flagged for a closer look

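Among 279 groups of 4 libraries examined (levels, isoform shares and transcript classes named in the text), 15 (5.38%) had 1 library far from the other 3 by Dixon's test, and chance flags about 1 in 20 groups. In frontal cortex these were replicate 1 for Adarb2 (22.9 CPM, median of the 4 libraries 20.2), Crtam (0.0600 CPM, median 0.0307) and Sv2b (571 CPM, median 560), and replicate 3 for Nrk (0.0580 CPM, with no count in the other 3) and for the Kcnip1 transcript ENSMUST00000065970 (72.1% of the gene, median 61.8%). In cerebellum, replicate 1 stood apart for Emx2 (0.0289 CPM, no count in the others), Grin2a (40.9 CPM, median 41.8) and mitochondrial transcripts (3.74% of counts, median 3.83%). Replicate 2 stood apart for Glra2 (3.47 CPM, median 2.55) and Ncam1 (350.1 CPM, median 362), and replicate 3 for protein-coding transcripts (91.9%, median 91.7%). Replicate 4 stood apart for Celf4 (281 CPM, median 287), Crym (0.0723 CPM, no count in the others), the Myo10 transcript ENSMUST00000022882 (3.85% of the gene, listed at 0 in the others) and transcripts with a downstream exon junction (2.78%, median 2.76%). Most of these gaps were small beside the difference between regions.

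Ppp1r1b, which encodes the phosphatase regulator DARPP-32 of striatal neurons, was called in opposite directions in the genotypes. In Ctrl it was higher in cerebellum (log2 difference 1.79) and in the Upf3b-KO libraries higher in frontal cortex (−1.25), and the difference between the genotypes was not tested.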

How the results depend on the processing

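The count of genes called between regions stayed within 1.5 times of 4402 under 9 other settings of test, scaling, filter and rounding. Among these it ran from 3141 (minimum count 50) to 5409 (no filter on low counts). The count was 4432 to 4509 when any 1 library was left out. With a fold over 1.5 it was 6806, and with an adjusted p under 0.05 and no fold limit 13405. Calls on single transcripts (6195) became 16121 with no fold limit, 3992 with the replicate number as a block and 8153 with DESeq2. They lay between 5527 and 5633 with 1 library left out. Isoform calls (442) became 1279 with limma's diffSplice and 225 at 20 percentage points, and lay between 387 and 416 with 1 library left out. The replicate block left 4326 gene calls and 330 isoform calls, and 106 printed genes kept their side of the call under it, as under DESeq2, median-of-ratios size factors, length offsets and with 1 library left out. Their direction also held, except in 2 genes not called in any of these fits: Ncam1 turned from a log2 difference of −0.07 to 0.17 with length offsets, and Adarb2 from −0.04 to 0.0107 without frontal cortex replicate 1. Under DESeq2, median-of-ratios size factors, the block and length offsets, 4 list counts moved, each by 1 gene: calcium-binding genes higher in cerebellum (9 to 8 with DESeq2, the block or length offsets), and, with length offsets, ionotropic receptors higher in cerebellum (5 to 4) and choroid plexus (5 to 4) and striatal (6 to 5) markers higher in frontal cortex. The Map2 transcript ENSMUST00000024639 lost its call without cerebellum replicate 3 (−11.5 points). The class differences, in percentage points of counts, changed in size but not in direction. On length-scaled values they were 1.38 for protein-coding, −0.0865 for NMD, 0.268 for retained-intron, −0.102 for downstream-junction, −0.0201 for long non-coding and −2.20 for mitochondrial transcripts, and 44.7 nt for 3′ UTR length. Within protein-coding genes they were 0.167, −0.133, 0.156, −0.165 and, for mitochondrial transcripts, −0.755. With 1 library left out, the ranges were 0.790 to 0.850 for coding, −0.116 to −0.102 for NMD, 0.169 to 0.183 for retained-intron, −0.146 to −0.133 for downstream-junction, −0.0904 to −0.0875 for long non-coding, −1.15 to −1.11 for mitochondrial transcripts, and 10.6 to 15.3 nt for 3′ UTR length. The causes were not tested.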

Other observations

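The long non-coding RNA genes named here had at least 20 CPM in 1 region. Lhx1os, antisense to the Purkinje cell gene Lhx1, had 62.5, 60.6, 59.5 and 59.2 CPM in cerebellum and 0.150, 0.212, 0.0290 and 0.124 CPM in frontal cortex (log2 difference 8.79, SE 0.113). Since the strand of counting is not given, its reads cannot be told apart from those of Lhx1 where the genes overlap. Mir124a-1hg, a host gene of the neuronal microRNA miR-124, stood at 24 ± 0.807 CPM in cerebellum and 7.36 ± 0.541 CPM in frontal cortex. On the frontal side, Dlx6os1, which is transcribed from the Dlx5 and Dlx6 locus of forebrain interneurons, had 22.8, 22.2, 20.5 and 22.6 CPM against 0, 0.0882, 0.0330 and 0.0723 CPM in cerebellum. Miat and Pantr1 had 23.1 ± 1.61 and 55.8 ± 0.985 CPM in frontal cortex and 0.572 ± 0.216 and 8.77 ± 0.984 CPM in cerebellum. Each of these 5 genes was called in the same direction in the Upf3b-KO libraries. Cdr1os and Cdr1, which overlap on opposite strands, were called higher in cerebellum in Ctrl (520.1 ± 8.26 and 85.3 ± 7.13 CPM against 185 ± 3.47 and 35.6 ± 6.52 CPM) but not in Upf3b-KO (log2 differences 0.63 and 0.27).

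Some transcripts annotated as NMD targets took a large share of their gene in 1 region. In Anks1b, a postsynaptic scaffold gene, such a transcript made up 33.5%, 34.7%, 35.2% and 34.4% in the cerebellum libraries and 1.74%, 1.37%, 1.55% and 1.46% in the frontal cortex libraries. In Gas7, a regulator of membrane and actin, the share was 35.2% ± 4.61 in frontal cortex and listed at 0 in every cerebellum library. In Tnik, a postsynaptic kinase gene, it was 20.6% ± 2.84 in frontal cortex and 45.1% ± 2.47 in cerebellum. Shares in the same direction were found in the Upf3b-KO libraries, at 1.64% and 26% for Anks1b, 40.7% and 0.134% for Gas7, and 25.4% and 51.7% for Tnik (frontal cortex and cerebellum). The Mettl16 transcript of this kind went from 9.26% ± 5.47 in frontal cortex to 45.2% ± 5.84 in cerebellum in Ctrl and stood at 42.5% and 51.8% in Upf3b-KO. It lost its call in 6 of the 8 fits that left out 1 library.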
